A study of Homo sapiens with 12 samples.

Results

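The change in RNA levels that follows radiation (RT) was compared between receptor-deficient and wild-type (WT) MCF10A cells, a human breast epithelial line that is immortal but forms no tumours. For each gene, the change from untreated to 20 Gy was estimated in IL1R1-KO and IL1RAP-KO cells together (4 libraries per dose, with genotype kept as a term of the model), and the same change in WT cells (2 libraries per dose) was subtracted from it. The result, called here the difference of responses, is below 0 where irradiated KO cells gained less RNA of a gene, or lost more, than irradiated WT cells did. All 12 libraries of the study were used, and 15303 of the 60675 genes in the table reached a TPM (a level per gene length, relative to the library's total) of 1 in at least 2 libraries and were tested. The 6 groups of 2 libraries were untreated WT cells (labelled with the vector v2), untreated IL1R1-KO cells (genotype spelled ILIR1 KO in the labels), untreated IL1RAP-KO cells, and cells of each genotype after a single dose of 20 Gy. KO cells had been made with pLentiCRISPRv2 and puromycin and were kept as pools rather than clones, so each can hold unedited cells. All groups grew in medium with EGF, cholera toxin, insulin, hydrocortisone and horse serum, and were plated 1 day before RT. The time from RT to RNA extraction and the guide behind each library are not given in the sources used here. The libraries of a group are described as biological replicates. The p-values of the pooled comparison measure the spread between them together with any difference between the KO lines in their response. Those of the comparison between KO lines measure the spread within groups.

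Interleukin-1 (IL-1) α and β bind the receptor chain IL1R1, which then pairs with the accessory chain IL1RAP, and without either chain the receptor does not signal. The assembled receptor recruits MYD88, kinases of the IRAK family and TRAF6, and these activate the IκB kinases, which free NF-κB to enter the nucleus. In epithelial cells NF-κB induces chemokines that attract neutrophils and monocytes, antimicrobial and acute phase proteins, IL-1 itself and inhibitors that limit the pathway. MYD88, the IRAK kinases and NF-κB are also used by other receptors.

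Both targeted mRNAs were still detected. IL1RAP (ENSG00000196083, chr3:190514051-190659750, plus strand) stood at 18 and 20.7 scaled TPM in untreated WT cells, 17.7 and 19.3 in IL1R1-KO cells and 4.39 and 4.95 in IL1RAP-KO cells. After 20 Gy its levels were 8.33 and 8.79 in WT cells, 11.8 and 14.4 in IL1R1-KO cells and 3.05 and 5.8 in IL1RAP-KO cells. IL1RAP mRNA was therefore lower in both untreated IL1RAP-KO libraries than in any other untreated library. IL1R1 (ENSG00000115594, chr2:102064544-102179874, plus strand) stood at 10.6 and 9.44 scaled TPM in untreated WT cells, 11 and 7.79 in IL1R1-KO cells and 11.7 and 12.3 in IL1RAP-KO cells. After 20 Gy the IL1R1 levels were 7.38 and 6.07 in WT cells, 8.34 and 7.38 in IL1R1-KO cells and 14.9 and 14.4 in IL1RAP-KO cells. The cells labelled IL1R1-KO overlapped WT cells in IL1R1 mRNA at both doses, and edits of the gene are not visible in TPM. The difference of responses was 0.55 (standard error 0.23, adjusted p = 0.236) on the log2 scale for IL1R1 and 0.79 (standard error 0.27, adjusted p = 0.143) for IL1RAP, and neither passed the thresholds. Mitochondrial transcripts took 18.3% to 21.1% of TPM in untreated libraries, 36.9% to 38.3% in irradiated WT libraries and 40.6% to 57.0% in irradiated KO libraries. The highest share was in IL1RAP-KO RT replicate 2, which also had, with its partner, the lowest correlation of any same-group pair across genes (r = 0.972). TPM were rescaled by trimmed mean factors, and levels are given as scaled TPM. With mitochondrial genes removed and TPM totalled again, an alternative added after seeing the data, 147 genes were called lower and 58 higher. Of these, 144 and 56 were among the calls reported below. Trimmed mean factors were computed again there and cancel a change of a library's total. Similar calls were thus built in, and this alternative could not show what the mitochondrial share does. All 20 basal mammary markers were detected, with a summed level of 5952 to 6049.6 scaled TPM in untreated WT cells and 5817 to 6608 in untreated KO cells. After 20 Gy the basal sums were 4443 to 4792 in WT and 4876 to 5560.0 in KO cells. The 18 leukocyte markers, of which 4 passed the filter, summed to 80.5 to 83.4 scaled TPM in untreated WT, 78.7 to 95.6 in untreated KO, 17.9 to 23.8 in irradiated WT and 30.8 to 35.9 in irradiated KO cells. LAPTM5 alone made up most of each untreated sum, and the leukocyte-defining PTPRC stayed at or under 0.284 in every library. In bulk RNA, fewer cells of a type and less RNA per cell cannot be told apart.

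The change after 20 Gy was lower, as a signed value, in receptor-deficient than in WT cells for 159 genes (1.04% of those tested) and higher for 61 genes (0.399%). A gene was called at an adjusted p under 0.05 and a difference beyond 2-fold. Some genes passed the filter through the irradiated WT libraries alone, which left them little room for a call other than lower. Over all tested genes the median difference of responses was -0.01 on the log2 scale. The 159 genes called lower had a median change after 20 Gy of 1.71 in WT cells and 0.01 in KO cells. The KO changes went both ways, and 83 of the 159 lay within 0.5 of 0. Of all 159 genes, 142 changed upward in WT cells; 82 of the 142 also changed upward in KO cells, by less. Another 17 changed downward in both, by more in KO cells. The median KO minus WT level of the 159 was -0.13 before RT and -1.76 after 20 Gy. In 15 of them the untreated KO level was already more than 2-fold lower, as for CXCL1 (-2.60), LTF (-1.66), CXCL8 (-1.61) and SOD2 (-2.03). The 61 genes called higher had a median change of 0.10 in WT cells and 1.29 in KO cells. Of these, 33 changed upward in both and 21 changed downward in WT and upward in KO cells. Another 7 changed downward in WT and did not rise in KO cells, and 6 of the 7 changed downward in KO cells. All 159 and all 61 had both KO lines on the same side of WT, which is partly set by how they were chosen. With TPM as deposited, without rescaling, 82 genes were called lower and 23 higher, and under nuclear protein-coding scaling 128 were called lower and 288 higher. That second scaling moved the median of all genes to 0.26 and the share of calls that were lower from 72.3% to 30.8%. Left without WT replicate 1, WT replicate 2 or WT RT replicate 1, the comparison gave 77, 79 and 77 genes called lower. Where a call below was lost with a library left out, that library is named and the range of the difference over all 12 omissions follows with its highest adjusted p. Of 148 calls lost in 1 or more omissions, 145 were also lost in another alternative.

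**Figure D1:**
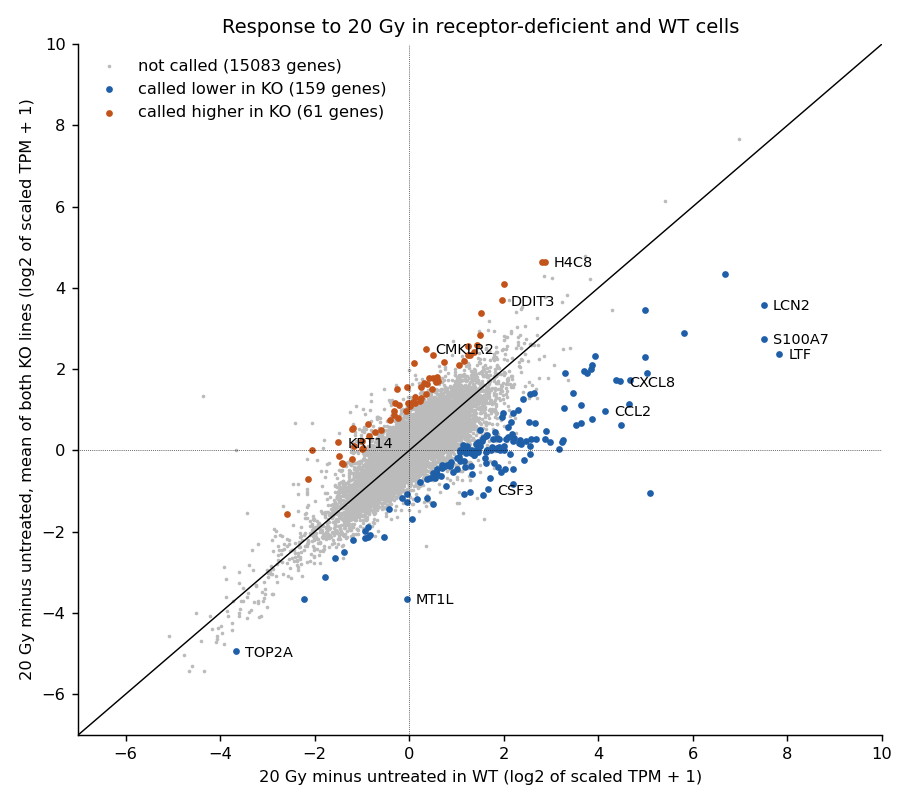
Change after 20 Gy in WT cells (horizontal) against the mean change of both KO lines (vertical), each in log2 of scaled TPM + 1, for the 15303 genes tested, with the diagonal marking equal responses. The 159 genes called lower in KO cells (blue) lie under the diagonal, with 83 of them within 0.5 of 0 on the KO axis, and the 61 called higher (orange) lie above it.

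Antimicrobial and mucosal defence genes had the lowest median of the 25 gene lists examined. Of 30 listed members, 17 were tested. Of these, 11 were called lower (64.7%, beside 1.04% of all genes) and none higher. The median difference of responses was -2.91 beside -0.01 over all genes, from a median change of 3.24 in WT and 1.18 in KO cells. Of the 11, S100A7A and PGLYRP4 reached a TPM of 1 only in irradiated WT libraries. The count was 8 to 11 when 1 library at a time was left out (8 without WT replicate 1) and 9 with TPM as deposited. LTF (ENSG00000012223, chr3:46435645-46485234, minus strand), which encodes the iron-binding milk protein lactoferrin, had the largest difference among genes whose mean reached 2 log2 units. Its level was 3.31 and 2.09 scaled TPM in untreated WT cells, 0.0857 and 0.251 in IL1R1-KO cells and 0.243 and 0.0558 in IL1RAP-KO cells. Irradiated levels of LTF were 1036 and 662 in WT cells, 2.61 and 2.98 in IL1R1-KO cells and 11.8 and 6.11 in IL1RAP-KO cells. Both irradiated WT libraries stood far above all 10 others, and the responses were 7.83 in WT cells, 1.70 in IL1R1-KO cells and 3.06 in IL1RAP-KO cells. The difference was -5.45 (standard error 0.50, adjusted p = 0.00029). S100A7 (ENSG00000143556, chr1:153457744-153460651, minus strand), the epithelial antimicrobial protein psoriasin, stood at 0.455 and 1.55 scaled TPM in untreated WT cells, 0 and 0.474 in IL1R1-KO cells and 0.476 and 0.521 in IL1RAP-KO cells. After 20 Gy the S100A7 levels were 399.8 and 307 in WT cells, 4.56 and 8.01 in IL1R1-KO cells and 8.65 and 13 in IL1RAP-KO cells. Irradiated KO libraries were all above the untreated ones and all far under irradiated WT libraries, with a difference of -4.76 (standard error 0.40, adjusted p = 0.000202). Reads of S100A7 and its close copy S100A7A may be shared between them.

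S100A8 and S100A9 encode the subunits of calprotectin, which binds zinc, calcium and manganese. S100A9 (ENSG00000163220, chr1:153357854-153361023, plus strand) was already abundant before RT, at 2039.9 and 2219 scaled TPM in untreated WT cells, 1583 and 1187 in IL1R1-KO cells and 1406 and 1383 in IL1RAP-KO cells. Irradiated levels of S100A9 were 21328 and 19057 in WT cells, 1315 and 1365 in IL1R1-KO cells and 2267 and 1775 in IL1RAP-KO cells. Irradiated IL1R1-KO libraries lay within the range of untreated KO libraries, irradiated IL1RAP-KO libraries lay above that range, and irradiated WT libraries lay above every other. The difference was -2.998 (standard error 0.23, adjusted p = 0.000103) for S100A9 and -2.95 (standard error 0.23, adjusted p = 0.000103) for S100A8 (ENSG00000143546, chr1:153390032-153391073, minus strand), whose mean level was 1149 ± 28.2 (SD, n = 2, as for every mean here) in untreated and 14253 ± 2024 in irradiated WT cells and 876 ± 54.2 and 1134 ± 293 in irradiated IL1R1-KO and IL1RAP-KO cells. Untreated S100A8 means were 617 ± 118 in IL1R1-KO and 629 ± 2.86 in IL1RAP-KO cells. PI3, the elastase inhibitor elafin, changed by 5.80 in WT cells, 3.04 in IL1R1-KO cells and 2.75 in IL1RAP-KO cells, a difference of -2.91 (standard error 0.23, adjusted p = 0.000103). The chitinase-like secreted proteins CHI3L1 and CHI3L2 differed by -3.13 (standard error 0.35, adjusted p = 0.00123) and -2.93 (standard error 0.37, adjusted p = 0.00219). The call for CHI3L2 was lost when IL1RAP-KO was compared with WT without the IL1R1-KO libraries, the only 1 of 26 alternatives to end it. S100A12 (-3.09), S100A7A (-1.76) and PGLYRP4 (-1.55) were also called lower. S100A12 was lost without WT replicate 1, WT RT replicate 1 or WT RT replicate 2 (-3.67 to -2.52, adjusted p up to 0.11), S100A7A without WT replicate 1, WT replicate 2 or WT RT replicate 1 (-2.09 to -1.44, adjusted p up to 0.075) and PGLYRP4 without WT replicate 1, WT replicate 2, IL1RAP-KO replicate 1, IL1RAP-KO replicate 2 or WT RT replicate 2 (-1.81 to -1.29, adjusted p up to 0.14). The 6 members that did not pass ranged from -0.41 (TCN1) to 0.44 (RARRES1), among them SLPI, a protease inhibitor, at -0.25 (standard error 0.22, adjusted p = 0.599). SLPI had a change of 2.31 in WT and 2.06 in KO cells.

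**Figure D2:**
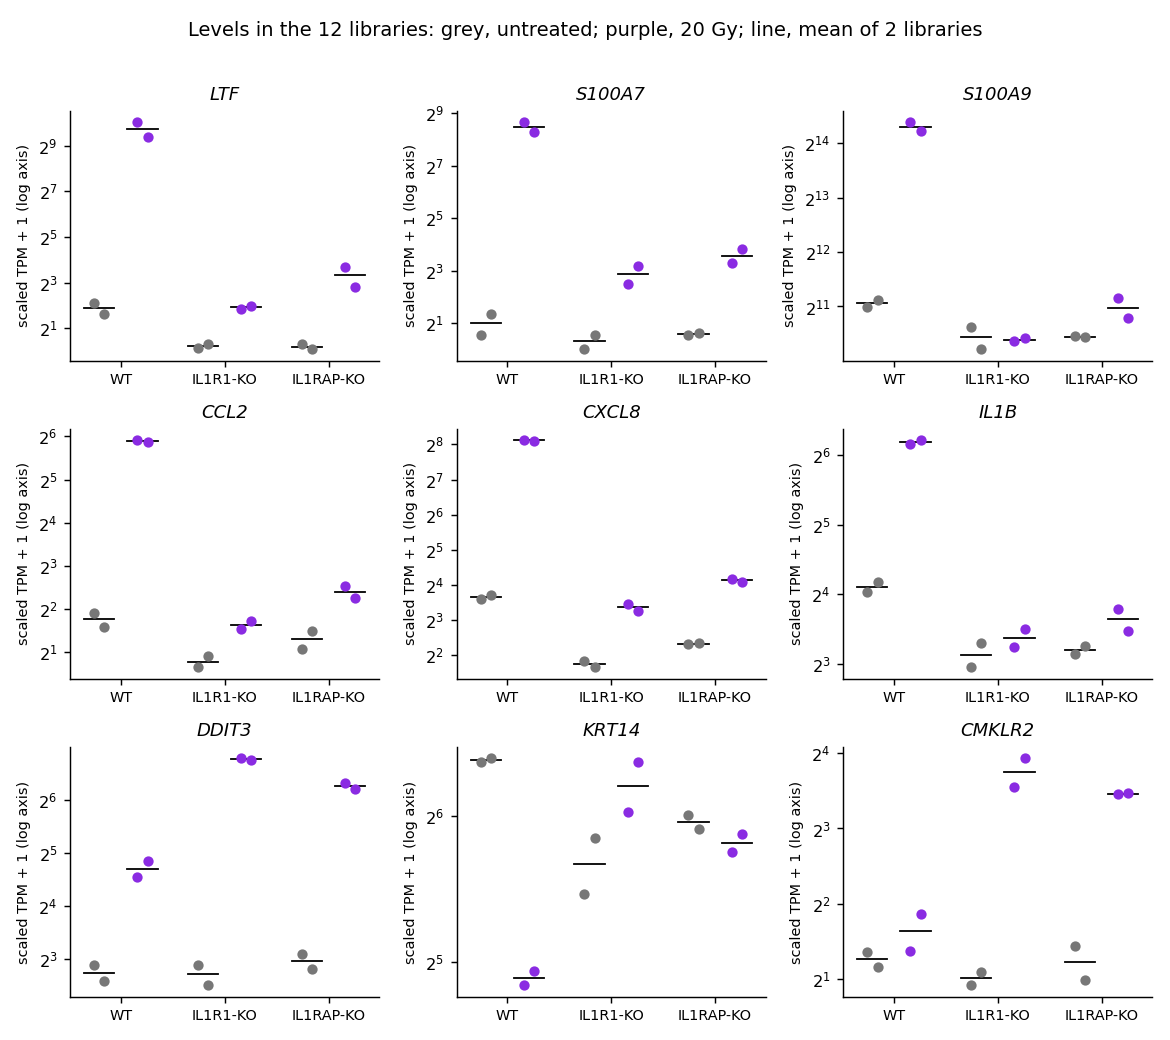
Scaled TPM + 1 on a log2 axis in each of the 12 libraries for 9 genes, by genotype, with untreated libraries in grey, irradiated ones in purple and a line at the mean of 2 libraries. LTF, S100A7, S100A9, CCL2, CXCL8 and IL1B were highest in irradiated WT cells, while DDIT3 and CMKLR2 were highest in irradiated KO cells and KRT14 was lowest in irradiated WT cells.

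Chemokines and myeloid growth factors had a median of -0.41 beside -0.01 over all genes. Of 18 tested members, 8 were called lower (44.4%, beside 1.04% of all genes) and none higher. The count was 6 to 8 with 1 library left out. CCL2 (ENSG00000108691, chr17:34255274-34257208, plus strand), a chemokine for monocytes, stood at 2.77 and 2.02 scaled TPM in untreated WT cells, 0.571 and 0.874 in IL1R1-KO cells and 1.12 and 1.83 in IL1RAP-KO cells. Irradiated levels of CCL2 were 59.1 and 57.5 in WT cells, 1.89 and 2.3 in IL1R1-KO cells and 4.8 and 3.77 in IL1RAP-KO cells. Irradiated WT libraries were above all others, and the difference of responses was -3.16 (standard error 0.24, adjusted p = 0.000103). CXCL8 (ENSG00000169429, chr4:73740519-73743716, plus strand), the neutrophil chemokine interleukin-8, stood at 11.1 and 12.1 scaled TPM in untreated WT cells, 2.6 and 2.16 in IL1R1-KO cells and 4.02 and 4.09 in IL1RAP-KO cells. Irradiated levels of CXCL8 were 276 and 275 in WT cells, 10.0 and 8.62 in IL1R1-KO cells and 17 and 16.1 in IL1RAP-KO cells. KO cells therefore reached after 20 Gy about the level that WT cells had without it, and the difference was -2.76 (standard error 0.14, adjusted p = 8.26e-06), the smallest adjusted p of all tested genes together with that of SLC39A8. CSF3 (ENSG00000108342, chr17:40015361-40017813, plus strand), the granulocyte growth factor G-CSF, changed in opposite directions, by 1.66 in WT cells, -1.07 in IL1R1-KO cells and -0.85 in IL1RAP-KO cells. Its level was 25.6 and 23.6 scaled TPM in untreated WT cells, 5.88 and 7.85 in IL1R1-KO cells and 9.26 and 9.76 in IL1RAP-KO cells. Irradiated levels of CSF3 were 78 and 81.6 in WT cells, 2.67 and 2.73 in IL1R1-KO cells and 4.89 and 4.8 in IL1RAP-KO cells. The 4 irradiated KO libraries were the lowest of the 12, and the difference was -2.62 (standard error 0.16, adjusted p = 2.32e-05). CCL20, a chemokine for dendritic cells and lymphocytes, showed the same kind of opposite change, 1.56 in WT and -1.11 in KO cells, and differed by -2.67 (standard error 0.32, adjusted p = 0.00145). The macrophage growth factor CSF1 differed by -1.26 (standard error 0.20, adjusted p = 0.00942), a call lost without WT replicate 1 (adjusted p = 0.068) and under 2 of 3 other scalings. IL6 had a difference of 0.36 (adjusted p = 0.636), and the interferon-induced chemokine CXCL10 one of -0.38 (adjusted p = 0.588); neither passed.

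The neighbouring chemokine genes CXCL1, CXCL2 and CXCL3 on chromosome 4 attract neutrophils and are close copies of each other, so reads may have been split between them. CXCL1 stood at 31.5 ± 0.444 scaled TPM in untreated and 1024 ± 51.8 in irradiated WT cells. In KO cells the CXCL1 means were 2.81 ± 0.173 and 6.56 ± 0.722 untreated and 15 ± 1.37 and 43.8 ± 10.2 after 20 Gy, for IL1R1-KO and IL1RAP-KO. The differences were -2.67 (standard error 0.21, adjusted p = 0.000124) for CXCL1, -2.29 (standard error 0.30, adjusted p = 0.00275) for CXCL3 and -1.45 (standard error 0.30, adjusted p = 0.0287) for CXCL2. Those of CXCL1 and CXCL3 were kept with each library left out. That of CXCL2 was lost without WT replicate 1, WT replicate 2, IL1R1-KO replicate 1, IL1RAP-KO replicate 1, IL1RAP-KO replicate 2, WT RT replicate 1, WT RT replicate 2 or IL1R1-KO RT replicate 1 (-1.59 to -1.26, adjusted p up to 0.16).

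NF-κB target genes were called lower in 16 of 39 tested members and higher in none (41.0% of the list, beside 1.04% of all genes), with a median of -0.91, from a median change of 1.68 in WT and 0.34 in KO cells. The count was 13 to 18 with 1 library left out and 15 to 16 under the other scalings. Lists shared called members, so their counts are not independent. Of the 16, CCL2, CCL20, CXCL1, CXCL2, CXCL3 and CXCL8 were also counted among the chemokines and LCN2 among the antimicrobial genes. C3 and SAA1 were also counted as acute phase and complement genes, PLAU as senescence-associated and IL1B in the IL-1 family. Besides the chemokines, LCN2 (ENSG00000148346, chr9:128149071-128153453, plus strand), a protein that binds bacterial iron carriers, stood at 1.53 and 1.05 scaled TPM in untreated WT cells, 0.333 and 1.45 in IL1R1-KO cells and 1.42 and 2.74 in IL1RAP-KO cells. After 20 Gy its levels were 323 and 522 in WT cells, 20.5 and 20.0 in IL1R1-KO cells and 36.2 and 34.9 in IL1RAP-KO cells. Every irradiated library was above every untreated one, and the WT ones were the highest, with a difference of -3.92 (standard error 0.37, adjusted p = 0.000327). Feedback inhibitors of the pathway were among the members. ZC3H12A, an RNase that degrades cytokine mRNAs, differed by -2.65 (standard error 0.35, adjusted p = 0.00275), and TNIP3, which binds the inhibitor TNFAIP3, by -2.44 (standard error 0.31, adjusted p = 0.0025). The values were -0.74 (standard error 0.10, adjusted p = 0.00329) for NFKBIA, which encodes the inhibitor IκBα, and -0.90 (standard error 0.19, adjusted p = 0.0305) for BIRC3, so that both passed the adjusted p and not the fold. TNFAIP3 itself was at -0.62 (standard error 0.34, adjusted p = 0.369). EBI3, a subunit of interleukin-27 and interleukin-35, differed by -2.76 (standard error 0.31, adjusted p = 0.00112), and TNFAIP6, which binds hyaluronan, by -1.91 (standard error 0.27, adjusted p = 0.00478). EBI3 reached a TPM of 1 only in irradiated WT libraries. Calls for ZC3H12A, CXCL3 and TNFAIP6 were lost when IL1RAP-KO was compared with WT alone, and those for EBI3, TNIP3, CXCL3 and TNFAIP6 with a pseudocount of 0.1. SOD2, the mitochondrial superoxide dismutase, had mean levels of 603 ± 3.28 in untreated and 5936 ± 519 scaled TPM in irradiated WT cells and of 362 ± 52 and 842 ± 29.1 in irradiated IL1R1-KO and IL1RAP-KO cells. Its difference was -1.40 (standard error 0.27, adjusted p = 0.0207), lost without WT replicate 1, WT replicate 2, WT RT replicate 1 or IL1R1-KO RT replicate 1 (-1.51 to -1.25, adjusted p up to 0.13). Untreated SOD2 levels were also lower in KO cells, at 129.7 ± 16.3 and 168 ± 12.5. The members PTGS2 (0.02), TRAF1 (-0.03) and RELB (-0.09) had values near 0.

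The promoters of called genes were searched for GGGA, any 2 bases and TTCC, a form of the NF-κB site, on both strands, in windows from 250 bases before to 50 after the gene start (RefSeq, GRCh38.p14). Windows were matched for 102 of 157 symbols called lower and 43 of 61 called higher. The motif was in 6 of the 102 (5.88%), in 0 of the 43 and in 1.63% of all 27305 windows. Among the NF-κB targets called lower it was in 4 of 13 windows, those of LCN2, CXCL1, CXCL2 and CXCL3. The other windows of the 6, not shown, were those of LCE1C and MIR3142HG, outside this list, whose losses are not listed here. CXCL1, CXCL2 and CXCL3 are close copies, so their windows are not independent. For the 4 list members the 250 bases before each start are shown, with the matched bases in capitals. In the CXCL genes 2 matches on opposite strands overlap.
LCN2 (chr9:128149203-128149452, plus strand): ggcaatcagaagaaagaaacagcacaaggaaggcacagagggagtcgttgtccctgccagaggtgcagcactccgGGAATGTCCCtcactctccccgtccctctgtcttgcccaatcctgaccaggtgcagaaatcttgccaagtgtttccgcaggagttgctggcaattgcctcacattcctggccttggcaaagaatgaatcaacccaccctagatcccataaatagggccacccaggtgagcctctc
CXCL1 (chr4:73869143-73869392, plus strand): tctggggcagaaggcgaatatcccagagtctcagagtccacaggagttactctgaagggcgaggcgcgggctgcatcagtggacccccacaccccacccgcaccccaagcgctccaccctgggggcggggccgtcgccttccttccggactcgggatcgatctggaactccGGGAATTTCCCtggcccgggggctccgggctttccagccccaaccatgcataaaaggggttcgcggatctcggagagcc
CXCL2 (chr4:74099196-74099445, minus strand): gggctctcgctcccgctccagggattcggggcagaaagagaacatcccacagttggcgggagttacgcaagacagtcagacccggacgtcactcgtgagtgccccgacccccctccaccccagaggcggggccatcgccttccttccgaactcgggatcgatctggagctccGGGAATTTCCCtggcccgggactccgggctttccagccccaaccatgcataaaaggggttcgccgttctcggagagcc
CXCL3 (chr4:74038690-74038939, minus strand): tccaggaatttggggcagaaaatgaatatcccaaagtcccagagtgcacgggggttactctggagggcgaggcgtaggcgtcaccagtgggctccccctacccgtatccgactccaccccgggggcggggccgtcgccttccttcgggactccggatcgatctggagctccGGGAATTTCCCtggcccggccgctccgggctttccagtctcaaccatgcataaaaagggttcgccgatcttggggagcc
The match began 79 bases before the RefSeq start in CXCL1 and CXCL3, 78 in CXCL2 and 175 in LCN2. In LCN2 and CXCL3 this start lies inside the span that GENCODE v44 gives the gene. A match is a description of the sequence, and binding was not measured.

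Acute phase and complement genes had a median of -0.82 beside -0.01 over all genes. Of the members called lower, HP, SAA4 and VNN2 reached a TPM of 1 only in irradiated WT libraries. That left them little room for a call other than lower. The list also held the pantetheinase genes VNN1 and VNN2. Of 23 tested members, 11 were called lower (47.8%, beside 1.04% of all genes) and none higher. This count depended on single libraries: it was 4 without WT replicate 1, up to 11 with others left out, and 6 with TPM as deposited. SERPINA3 (ENSG00000196136, chr14:94612384-94624055, plus strand), the protease inhibitor α1-antichymotrypsin, stood at 189.9 and 193 scaled TPM in untreated WT cells, 68.5 and 109.9 in IL1R1-KO cells and 118 and 119 in IL1RAP-KO cells. Irradiated levels of SERPINA3 were 1277 and 1178 in WT cells, 99.7 and 105 in IL1R1-KO cells and 183 and 122 in IL1RAP-KO cells. Irradiated WT libraries stood far above the rest, and both untreated WT libraries were above every KO library. The difference of -2.39 (standard error 0.25, adjusted p = 0.000719) was kept in all 26 alternatives. VNN1, the pantetheinase vanin-1, changed by 3.85 in WT cells, 1.78 in IL1R1-KO cells and 2.21 in IL1RAP-KO cells and differed by -1.86 (standard error 0.19, adjusted p = 0.000578), also kept in all 26. The serum amyloid genes SAA1, SAA2 and SAA4 are near-identical or joined by the read-through gene SAA2-SAA4, so their values are uncertain one from another. SAA1 had means of 373 ± 36.2 and 5662 ± 174 scaled TPM in untreated and irradiated WT cells and of 618 ± 89.2 and 769 ± 31.3 in irradiated IL1R1-KO and IL1RAP-KO cells, a difference of -1.61 (standard error 0.22, adjusted p = 0.00329). SAA2 and SAA4 differed by -2.34 and -2.64; SAA2 was lost without WT replicate 1, WT replicate 2 or WT RT replicate 1 (-2.50 to -2.01, adjusted p up to 0.11) and SAA4 without WT replicate 1, WT replicate 2 or WT RT replicate 2 (-3.17 to -2.10, adjusted p up to 0.11). The complement genes C1R, C1S and C3 differed by -1.84 (standard error 0.29, adjusted p = 0.008), -1.74 (standard error 0.37, adjusted p = 0.0343) and -1.27 (standard error 0.20, adjusted p = 0.00701). C3 was lost without WT replicate 1 (adjusted p = 0.052), C1R without WT replicate 2 or WT RT replicate 1 (-2.02 to -1.65, adjusted p up to 0.06), and C1S without WT replicate 1, WT replicate 2, IL1R1-KO replicate 2, WT RT replicate 1, WT RT replicate 2, IL1R1-KO RT replicate 1 or IL1R1-KO RT replicate 2 (-1.92 to -1.48, adjusted p up to 0.16). Complement factor B (CFB), at -0.82 (standard error 0.16, adjusted p = 0.026), passed the adjusted p and not the fold, and the complement inhibitor SERPING1 was at 0.02.

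Within the IL-1 family and its proximal signalling genes, 2 of 25 tested members were called lower, IL1B and IRAK2 (8%, beside 1.04% of all genes). The list median was 0.02. IL1B (ENSG00000125538, chr2:112829751-112836816, minus strand), which encodes the ligand IL-1β, stood at 15.4 and 17.1 scaled TPM in untreated WT cells, 6.71 and 8.81 in IL1R1-KO cells and 7.76 and 8.51 in IL1RAP-KO cells. Irradiated levels of IL1B were 70.4 and 73.1 in WT cells, 8.4 and 10.3 in IL1R1-KO cells and 12.8 and 10.1 in IL1RAP-KO cells. Irradiated WT cells had the 2 highest levels, and irradiated KO libraries overlapped untreated KO libraries. The difference was -1.74 (standard error 0.19, adjusted p = 0.001), kept in all 26 alternatives. IL1A, for IL-1α, was at -0.97 (standard error 0.12, adjusted p = 0.00226), just under the fold threshold. IRAK2 (ENSG00000134070, chr3:10164919-10243745, plus strand), a kinase-like adaptor of the receptor complex, differed by -1.14 (standard error 0.19, adjusted p = 0.011). It was lower in KO cells at both doses, with means of 4.62 ± 0.177, 1.05 ± 0.116 and 1.7 ± 0.044 scaled TPM untreated and 28.7 ± 1.59, 4.2 ± 0.475 and 5.18 ± 1.146 after 20 Gy in WT, IL1R1-KO and IL1RAP-KO cells. The call for IRAK2 was lost without WT replicate 1, WT replicate 2 or WT RT replicate 1 (-1.20 to -1.05, adjusted p up to 0.082) and under 4 other alternatives. MYD88 (0.12), IRAK4 (0.25), TRAF6 (0.17), IRAK1 (-0.28) and the receptor antagonist IL1RN (0.41) were not called, with adjusted p from 0.422 (IRAK1) to 0.733 (MYD88).

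Other genes called lower had various roles. SERPINB4 and SERPINB3, neighbouring and near-identical serine and cysteine protease inhibitors of squamous epithelium, differed by -3.01 (standard error 0.27, adjusted p = 0.000259) and -2.10 (standard error 0.27, adjusted p = 0.00265), and SERPINB3 was lost with a pseudocount of 0.1. They were 2 of 4 members called lower among 38 keratinocyte differentiation genes (10.5%, beside 1.04% of all genes), a list whose median was 0.30. The others were SPRR2A at -1.80 (standard error 0.40, adjusted p = 0.0383) and LCE3D at -1.39 (standard error 0.32, adjusted p = 0.0425). LCE3D reached a TPM of 1 only in irradiated WT libraries. SPRR2A was lost without WT replicate 1, WT replicate 2, IL1R1-KO replicate 2, IL1RAP-KO replicate 2, WT RT replicate 1, WT RT replicate 2 or IL1R1-KO RT replicate 1 (-1.99 to -1.56, adjusted p up to 0.21). LCE3D was lost without WT replicate 1, WT replicate 2, IL1R1-KO replicate 1, IL1R1-KO replicate 2, IL1RAP-KO replicate 1, IL1RAP-KO replicate 2, WT RT replicate 1, IL1R1-KO RT replicate 1 or IL1R1-KO RT replicate 2 (-1.70 to -1.08, adjusted p up to 0.21). AKR1B1 (ENSG00000085662, chr7:134442356-134459284, minus strand), aldose reductase, stood at 173 and 159.7 scaled TPM in untreated WT cells, 209 and 149 in IL1R1-KO cells and 135 and 137 in IL1RAP-KO cells. Irradiated levels of AKR1B1 were 842 and 962 in WT cells, 127 and 113 in IL1R1-KO cells and 175 and 116 in IL1RAP-KO cells, and only WT cells moved away from their untreated range upward, with a difference of -2.68 (standard error 0.28, adjusted p = 0.000732). PLAU, the urokinase plasminogen activator, differed by -2.13 (standard error 0.29, adjusted p = 0.00367). It was 1 of 3 genes called lower, with PLAT and STC1, among 34 senescence-associated secreted factors (8.82%, beside 1.04% of all genes). The list also held 2 genes called higher, STC2 and TIMP3 (5.88%, beside 0.399% of all genes), and its median was -0.04. PLAT (-1.17) was lost without WT replicate 1, WT replicate 2 or WT RT replicate 1 (-1.31 to -1.03, adjusted p up to 0.064), and STC1 (-1.83) without WT replicate 1, WT replicate 2, IL1R1-KO replicate 2, IL1RAP-KO replicate 1, WT RT replicate 1, WT RT replicate 2 or IL1R1-KO RT replicate 1 (-2.12 to -1.54, adjusted p up to 0.13). The call for PLAU was lost when IL1RAP-KO alone was compared with WT.

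Of 4 MHC class II chains that passed the filter, counted after their values were seen, only HLA-DRA was called lower, beside 1.04% of all genes. The others were HLA-DPA1 at -1.23 (standard error 0.35, adjusted p = 0.0923), HLA-DMA at -0.33 and HLA-DOB at 0.53. HLA-DRA, a class II chain, was at 0 in all 6 untreated libraries and in both irradiated IL1R1-KO libraries, at 8.02 and 1.96 scaled TPM in irradiated WT cells and at 0.137 and 0.323 in irradiated IL1RAP-KO cells. CD74, the class II invariant chain, was at 11.7 and 4.11 in irradiated WT cells and at 0 and 0.303 and 0.57 and 0.605 in irradiated IL1R1-KO and IL1RAP-KO cells. On the log2(scaled TPM + 1) scale, which sets the size of such values, HLA-DRA differed by -2.22 (standard error 0.49, adjusted p = 0.0387) and CD74 by -2.59 (standard error 0.44, adjusted p = 0.0126). WT RT replicate 1 held the higher level of both genes. Both reached a TPM of 1 only in irradiated WT libraries, which left little room for a call other than lower. HLA-DRA was lost without WT replicate 1, WT replicate 2, IL1R1-KO replicate 1, IL1R1-KO replicate 2, IL1RAP-KO replicate 1, IL1RAP-KO replicate 2, WT RT replicate 1, IL1R1-KO RT replicate 1 or IL1R1-KO RT replicate 2 (-3.03 to -1.42, adjusted p up to 0.16), and CD74 without WT replicate 1 or WT replicate 2 (-3.25 to -1.93, adjusted p up to 0.079). CIITA, the activator of class II genes, differed by -1.64 (standard error 0.38, adjusted p = 0.0441) and was lost without WT replicate 1, WT replicate 2, IL1R1-KO replicate 1, IL1R1-KO replicate 2, IL1RAP-KO replicate 1, IL1RAP-KO replicate 2, WT RT replicate 1, IL1R1-KO RT replicate 1, IL1R1-KO RT replicate 2 or IL1RAP-KO RT replicate 1 (-2.10 to -1.18, adjusted p up to 0.21).

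Some genes called lower handle metals. They were chosen after their values were seen, from no fixed list, and other genes of zinc and iron handling were not counted. Metallothioneins bind zinc and copper and are near-identical within their family. Of 5 metallothionein genes tested, 3 were called lower, beside 1.04% of all genes: MT1E, MT2A and MT1L, the last a transcribed pseudogene. MT1F at -0.99 (standard error 0.52, adjusted p = 0.344) and MT1X at -0.55 (standard error 0.28, adjusted p = 0.339) were not called. None of the 3 called had a higher mean level after RT in WT cells. MT2A had means of 9760.1 ± 828 and 2837 ± 118 scaled TPM in untreated and irradiated WT cells, and of 976 ± 62.5 and 1011 ± 50.9 in irradiated IL1R1-KO and IL1RAP-KO cells, a difference of -1.33 (standard error 0.14, adjusted p = 0.000578). MT1E differed by -1.43 (standard error 0.15, adjusted p = 0.000719) and both calls were kept with each library left out. MT1L (ENSG00000260549, chr16:56617563-56618680, plus strand) stood at 32.3 and 35.7 scaled TPM in untreated WT cells, 37.3 and 33.3 in IL1R1-KO cells and 46 and 31.3 in IL1RAP-KO cells. Irradiated levels of MT1L were 38.9 and 27.5 in WT cells, 0 and 0.586 in IL1R1-KO cells and 4.74 and 7.89 in IL1RAP-KO cells, lower in all 4 irradiated KO libraries than in any other, with a difference of -3.59 (standard error 0.72, adjusted p = 0.0254). It was lost without WT replicate 1, WT replicate 2, IL1R1-KO replicate 2, WT RT replicate 1, WT RT replicate 2 or IL1R1-KO RT replicate 2 (-3.96 to -3.22, adjusted p up to 0.15) with a pseudocount of 0.1, with no filter on low values and with IL1RAP-KO and WT alone. SLC39A8, a zinc importer, changed by 2.03 in WT cells, -0.59 in IL1R1-KO cells and -0.30 in IL1RAP-KO cells and differed by -2.47 (standard error 0.13, adjusted p = 8.26e-06). The transferrin receptor TFRC differed by -1.54 (standard error 0.23, adjusted p = 0.006), the iron-responsive aconitase ACO1 by -1.35 (standard error 0.18, adjusted p = 0.00288) and the iron transporter SLC11A2 by -1.20 (standard error 0.16, adjusted p = 0.00265). Those of TFRC and ACO1 were kept in all 12 omissions, ACO1 was lost with IL1RAP-KO and WT alone, and SLC11A2 was lost with IL1RAP-KO and WT alone, with TPM as deposited and under nuclear protein-coding scaling. SLC39A8, TFRC, ACO1 and SLC11A2 each had a change above 0 in WT cells and below 0 in KO cells.

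Further genes called lower were chosen after their values were seen. OLFM4, a secreted glycoprotein, was at 60.9 and 34 scaled TPM in irradiated WT cells and at 0.0744 to 1.43 in the other 10 libraries, a difference of -3.86 (standard error 0.35, adjusted p = 0.000259). SGK1, a kinase induced by glucocorticoids, was at 63.8 and 62.8 in untreated and 149.9 and 134 in irradiated WT cells, while the 4 irradiated KO libraries, at 23.8 to 32.4, were under every untreated library. Its difference was -2.23 (standard error 0.14, adjusted p = 2.32e-05). SAT1, which acetylates polyamines, differed by -1.84 (standard error 0.11, adjusted p = 2.32e-05). Calls for OLFM4, SGK1 and SAT1 were kept in all 26 alternatives. HSD11B1, which regenerates active glucocorticoid, differed by -3.14 (standard error 0.28, adjusted p = 0.000257) and was lost only with a pseudocount of 0.1. It reached a TPM of 1 only in irradiated WT libraries. The most negative value of all called genes, -6.13 (standard error 1.27, adjusted p = 0.0295), belonged to AL451106.1, which was at 23.8 and 46 scaled TPM in irradiated WT cells, at 16.8 in IL1RAP-KO replicate 2 and listed at 0 in the other 9 libraries. It was lost without WT replicate 1, WT replicate 2, IL1R1-KO replicate 2, WT RT replicate 1, WT RT replicate 2 or IL1R1-KO RT replicate 1 (-6.75 to -5.09, adjusted p up to 0.13).

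TOP2A (ENSG00000131747, chr17:40388525-40417896, minus strand), the DNA topoisomerase of dividing cells, was the only 1 of 55 mitosis genes called (1.82%, near the 1.44% of all genes). It stood at 70.0 and 72.5 scaled TPM in untreated WT cells, 71.5 and 72.2 in IL1R1-KO cells and 77.3 and 76 in IL1RAP-KO cells. Irradiated levels of TOP2A were 4.98 and 4.41 in WT cells, 1.26 and 1.44 in IL1R1-KO cells and 1.26 and 1.87 in IL1RAP-KO cells. All 6 irradiated libraries were under every untreated one, and the 4 KO libraries were the lowest, with a difference of -1.28 (standard error 0.15, adjusted p = 0.00136) kept in all 26 alternatives. The median change of the mitosis genes was -3.17 in WT and -3.51 in KO cells, a median difference of -0.34 (-0.43 without WT RT replicate 1 and -0.18 without WT RT replicate 2). Of 51 DNA replication genes none was called, and their median of -0.19 became 0.09 with scaling to nuclear protein-coding genes. That scaling moved the median of all genes from -0.01 to 0.26, so a median of the size seen for mitosis genes depends on the scaling too.

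**Figure D3:**
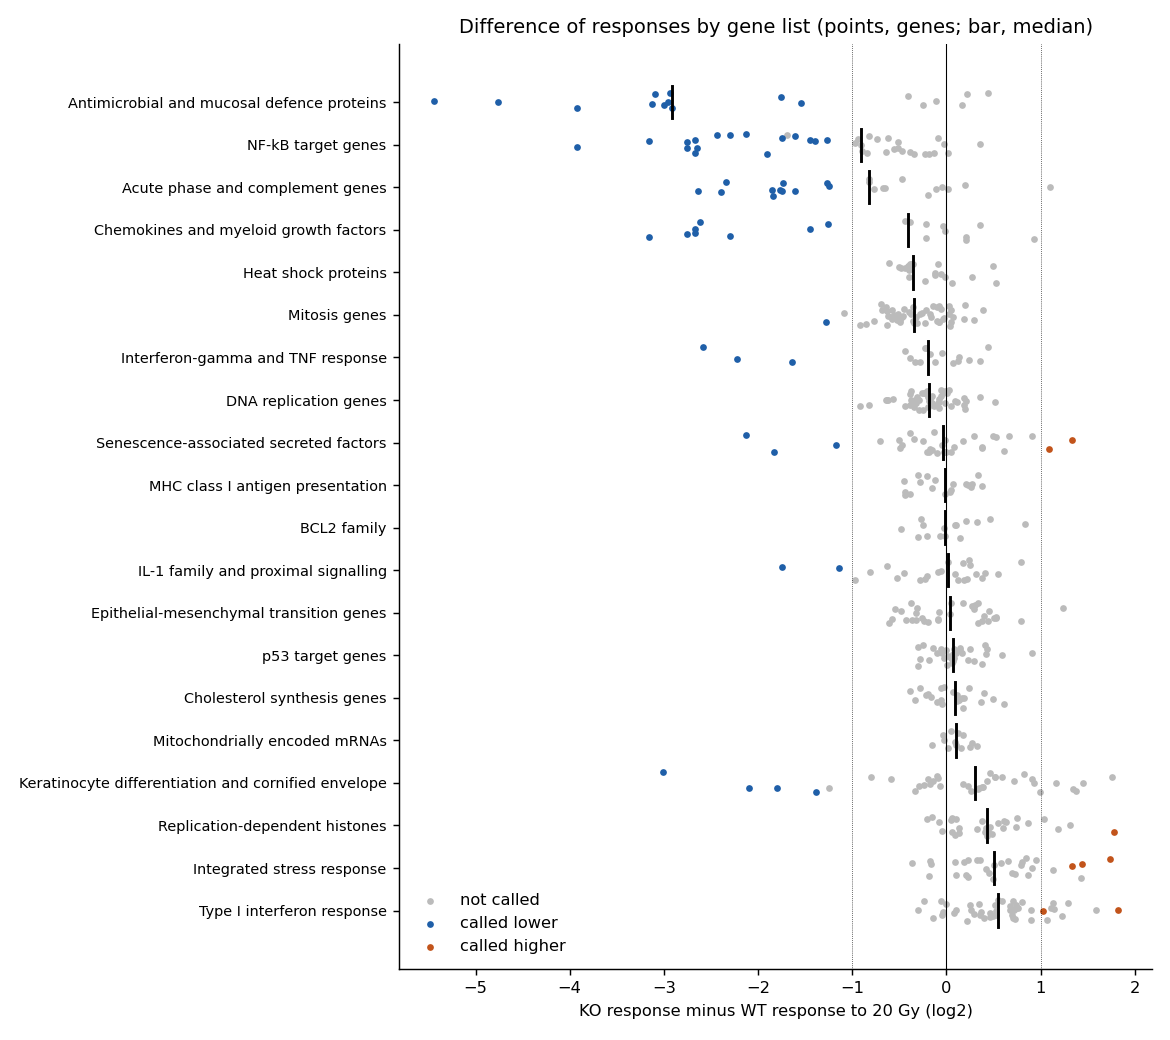
Difference of responses (log2) of every tested member of 20 gene lists, with calls in blue (lower) and orange (higher), medians as bars and dotted lines at a 2-fold difference. Antimicrobial genes had the lowest median, -2.91, and type I interferon genes the highest, 0.55.

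Among genes called higher in KO cells, those of the integrated stress response formed the largest group from any list, with 3 of 31 tested members (beside 0.399% of all genes). This response slows protein synthesis and raises genes for amino acid supply and, when prolonged, cell death. The list median was 0.50, from 0.47 to 0.56 with 1 library left out. In that direction 19 members had an unadjusted p under 0.05, beside 1168 of all 15303 genes. The count was 1 without WT RT replicate 1 and with TPM as deposited, 6 without IL1RAP-KO RT replicate 2 and 12 under nuclear protein-coding scaling. DDIT3 (ENSG00000175197, chr12:57516588-57521737, minus strand), the stress-induced transcription factor CHOP, stood at 6.36 and 4.95 scaled TPM in untreated WT cells, 6.4 and 4.63 in IL1R1-KO cells and 7.46 and 6 in IL1RAP-KO cells. Irradiated levels of DDIT3 were 22.1 and 27.6 in WT cells, 109 and 106 in IL1R1-KO cells and 78.8 and 72.7 in IL1RAP-KO cells. All irradiated libraries were above all untreated ones, and every KO library was above both WT libraries, with a difference of 1.74 (standard error 0.28, adjusted p = 0.00942). The call was lost without WT replicate 1 or WT RT replicate 1 (1.58 to 1.89, adjusted p up to 0.074), with TPM as deposited and with IL1RAP-KO and WT alone. TRIB3 (ENSG00000101255, chr20:362835-397559, plus strand), a pseudokinase induced by CHOP, stood at 47 and 44.3 scaled TPM in untreated WT cells, 57.7 and 43.8 in IL1R1-KO cells and 47.1 and 44.1 in IL1RAP-KO cells. Irradiated levels of TRIB3 were 33.5 and 41 in WT cells, 133 and 133 in IL1R1-KO cells and 97.8 and 77.5 in IL1RAP-KO cells. Its level was higher in KO cells and lower in WT cells than before RT, with a difference of 1.44 (standard error 0.22, adjusted p = 0.0059), lost without WT RT replicate 1 (adjusted p = 0.052), with TPM as deposited and with IL1RAP-KO and WT alone. STC2 (ENSG00000113739, chr5:173314723-173328447, minus strand), a secreted glycoprotein, changed by 1.24 in WT cells, 2.63 in IL1R1-KO cells and 2.52 in IL1RAP-KO cells and differed by 1.34 (standard error 0.14, adjusted p = 0.000901), kept in all 26 alternatives. CEBPG, a partner of the transcription factor ATF4 that was in no list and was chosen after its values were seen, differed by 1.13 (standard error 0.12, adjusted p = 0.00104) and was kept in all 12 omissions. The ATF4 mRNA itself was at -0.36 (standard error 0.09, adjusted p = 0.0661), ATF3 at 1.43 (standard error 0.46, adjusted p = 0.125), ASNS at 0.23 and PPP1R15A, which ends the response, at 0.87 (standard error 0.11, adjusted p = 0.0025), the last short of the fold threshold only.

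KRT14 (ENSG00000186847, chr17:41582279-41586895, minus strand), a keratin of basal epithelial cells, was the only 1 of 20 basal markers called (5%, beside 0.399% of all genes called higher). Its level was 82 and 83.3 scaled TPM in untreated WT cells, 43.1 and 56.7 in IL1R1-KO cells and 63.5 and 59.2 in IL1RAP-KO cells. Irradiated levels of KRT14 were 27.6 and 29.6 in WT cells, 64.1 and 81.7 in IL1R1-KO cells and 52.9 and 57.8 in IL1RAP-KO cells. Only irradiated WT cells stood apart, below the rest. Untreated WT libraries were the highest of the untreated ones. The difference was 1.70 (standard error 0.25, adjusted p = 0.00502), kept in all 26 alternatives. Its partner KRT5 was at 0.31 (adjusted p = 0.286), and KRT6A and ITGB4 at 0.99 (standard error 0.12, adjusted p = 0.00142) and 0.72 (standard error 0.16, adjusted p = 0.0379) passed the adjusted p only. The laminin chain LAMA3, at -0.80 (standard error 0.15, adjusted p = 0.0203), passed it in the other direction.

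CMKLR2 (ENSG00000183671, chr2:206175316-206218047, minus strand), a receptor for the attractant chemerin, had the largest difference of genes called higher whose mean reached 2 log2 units. Its level was 1.56 and 1.22 scaled TPM in untreated WT cells, 0.876 and 1.13 in IL1R1-KO cells and 1.7 and 0.976 in IL1RAP-KO cells. Irradiated levels of CMKLR2 were 1.57 and 2.62 in WT cells, 10.7 and 14.3 in IL1R1-KO cells and 10.0 and 10.1 in IL1RAP-KO cells. The 4 irradiated KO libraries were above all others, with a difference of 2.14 (standard error 0.30, adjusted p = 0.00396), kept in all 12 omissions and lost with IL1RAP-KO and WT alone. MAP2, a microtubule-associated protein best known from neurons, differed by 1.84 (standard error 0.22, adjusted p = 0.00183) and was kept in all 26 alternatives. The calls that follow were lost with several libraries left out. CYP1A1, an enzyme induced through the aryl hydrocarbon receptor, stood at 4.74 and 5.13 scaled TPM in irradiated WT cells and at 39.8 and 32.1 and 19.5 and 32.6 in irradiated IL1R1-KO and IL1RAP-KO cells, with all 6 untreated libraries at 0.219 to 2.56. Its difference of 2.08 (standard error 0.43, adjusted p = 0.0291) was lost without WT replicate 1, WT replicate 2, IL1RAP-KO replicate 1, IL1RAP-KO replicate 2, WT RT replicate 1, WT RT replicate 2 or IL1R1-KO RT replicate 1 (1.80 to 2.37, adjusted p up to 0.16). CLGN, a chaperone of the endoplasmic reticulum, differed by 1.85 (standard error 0.37, adjusted p = 0.0253), lost without WT replicate 1, WT replicate 2, IL1R1-KO replicate 2, IL1RAP-KO replicate 1, WT RT replicate 1 or IL1R1-KO RT replicate 1 (1.33 to 2.38, adjusted p up to 0.14). SNHG10, a small nucleolar RNA host gene, differed by 1.73 (standard error 0.36, adjusted p = 0.0305), lost without WT replicate 1, WT replicate 2, IL1R1-KO replicate 1, IL1R1-KO replicate 2, IL1RAP-KO replicate 2, WT RT replicate 1 or WT RT replicate 2 (1.49 to 1.97, adjusted p up to 0.15). The histone gene H4C8 was the 1 called of 30 replication-dependent histones (3.33%, beside 0.399% of all genes called higher), a list whose median was 0.43. H4C8 differed by 1.78 (standard error 0.35, adjusted p = 0.025), lost without WT replicate 2, WT RT replicate 1, WT RT replicate 2, IL1R1-KO RT replicate 1 or IL1R1-KO RT replicate 2 (1.44 to 2.12, adjusted p up to 0.14). LAPTM5, a lysosomal membrane protein counted as a leukocyte marker, had levels in all genotypes that were lower after RT, going from 71.4 and 75.7 to 12.7 and 10.3 scaled TPM in WT cells and to 23.3 and 24.9 and 30.3 and 26.5 in IL1R1-KO and IL1RAP-KO cells. Its difference of 1.02 (standard error 0.15, adjusted p = 0.00533) dropped under the fold threshold without WT replicate 2, IL1R1-KO replicate 2, IL1RAP-KO replicate 2, IL1RAP-KO RT replicate 1 or WT RT replicate 2 (0.88 to 1.153, adjusted p up to 0.045). TIMP3, an inhibitor of metalloproteinases in the senescence-associated list, differed by 1.09 (standard error 0.21, adjusted p = 0.0203), lost without WT replicate 1, WT replicate 2, WT RT replicate 1 or IL1R1-KO RT replicate 1 (0.79 to 1.38, adjusted p up to 0.11).

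Type I interferon response genes had the highest median of the lists, 0.55. Of 47 tested members, only IFIT1 and PARP9 were called (4.26%, beside 0.399% of all genes called higher). IFIT1 (ENSG00000185745, chr10:89392546-89406487, plus strand), which binds viral RNA, stood at 0.728 and 0.829 scaled TPM in untreated WT cells, 0.571 and 0.912 in IL1R1-KO cells and 0.7 and 0.614 in IL1RAP-KO cells. Irradiated levels of IFIT1 were 7.59 and 17.1 in WT cells, 47 and 59.7 in IL1R1-KO cells and 37 and 27.3 in IL1RAP-KO cells. All irradiated KO libraries were above both irradiated WT libraries, and WT RT replicate 2 was more than 2-fold above WT RT replicate 1. The difference was 1.82 (standard error 0.39, adjusted p = 0.0351), lost without WT replicate 1, WT replicate 2, IL1R1-KO replicate 1, IL1R1-KO replicate 2, IL1RAP-KO replicate 1, IL1RAP-KO replicate 2, WT RT replicate 1, IL1R1-KO RT replicate 1 or IL1R1-KO RT replicate 2 (1.29 to 2.36, adjusted p up to 0.15). PARP9, a regulator of interferon signalling, differed by 1.03 (standard error 0.22, adjusted p = 0.037), lost without WT replicate 1, WT replicate 2, IL1R1-KO replicate 1, IL1R1-KO replicate 2, IL1RAP-KO replicate 1, IL1RAP-KO replicate 2, WT RT replicate 1, IL1R1-KO RT replicate 1 or IL1R1-KO RT replicate 2 (0.69 to 1.37, adjusted p up to 0.18). The whole list moved with the choice of irradiated WT library. Its median was 0.23 without WT RT replicate 1 and 0.84 without WT RT replicate 2, and the number called was 0 without WT replicate 1, WT replicate 2 or WT RT replicate 1 and 11 without WT RT replicate 2. It was 0 with TPM as deposited and 12 under nuclear protein-coding scaling. Members with large uncalled values were IFI44L at 1.59 (standard error 0.52, adjusted p = 0.132), RSAD2 at 1.14 (standard error 0.40, adjusted p = 0.157) and ISG15 at 1.06 (standard error 0.60, adjusted p = 0.389). OAS1 (-0.04) and OAS3 (-0.01) were near 0. The letters GAAA, any 2 bases and GAAA, a form of the interferon-stimulated response element, were in 1 of 43 windows of genes called higher (2.33%), in 5.88% of 102 windows of genes called lower and in 3.65% of all windows, on either strand. IFIT1 was the 1 called higher, with 2 matches that do not overlap, shown in capitals as they read on its own strand (the reverse complement of the motif) in the 250 bases before its RefSeq start.
IFIT1 (chr10:89392373-89392622, plus strand): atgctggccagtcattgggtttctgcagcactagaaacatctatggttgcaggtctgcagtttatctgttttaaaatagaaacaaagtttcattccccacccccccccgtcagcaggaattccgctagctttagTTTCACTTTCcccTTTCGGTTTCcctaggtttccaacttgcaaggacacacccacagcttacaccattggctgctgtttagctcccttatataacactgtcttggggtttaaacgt
The first of these matches began 116 bases before that RefSeq start, which lies inside the GENCODE span given above for IFIT1.

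Several pathways known for their part in the radiation response had no called member. Calls were rare over all genes, at 1.44% of those tested, so having none does not set a list of this size apart. Of 33 p53 target genes none was called, and the median difference was 0.07. All 15 tested BCL2 family genes were uncalled, with a median of -0.02 (0.08 with TPM as deposited and 0.28 under nuclear protein-coding scaling, which moved the median of all genes to 0.07 and 0.26). The anti-apoptotic MCL1 was at 0.33 (standard error 0.09, adjusted p = 0.0886) with a 95% interval of 0.12 to 0.53, and BCL2L1 at 0.47 (standard error 0.26, adjusted p = 0.378) with an interval of -0.10 to 1.04. The interval for BCL2L1 reaches beyond 2-fold. Of 19 MHC class I genes (median -0.02, but 0.08 with TPM as deposited and 0.29 under nuclear protein-coding scaling), 24 cholesterol synthesis genes (median 0.09), 33 epithelial-mesenchymal transition genes (median 0.03) and 13 mitochondrially encoded mRNAs (median 0.10), none was called. The last median was -0.09 without IL1RAP-KO RT replicate 2, the library with the highest mitochondrial share. Heat shock proteins had a median of -0.36 with no call, and HSPA8 was at -0.61 (standard error 0.13, adjusted p = 0.0342), past the adjusted p and short of the fold. Interferon-γ and TNF response genes other than the 3 class II genes were uncalled, with a list median of -0.20 that became 0.04 with nuclear protein-coding scaling, and without WT replicate 1 or WT replicate 2 none of the 18 was called. The 3 class II genes called lower were 16.7% of that list, beside 1.04% of all genes. Luminal, fibroblast and endothelial markers had no call among 8, 6 and 4 tested members. The part of cell composition in the results was not tested.

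Pooling joins the KO lines, so their own responses were compared with each other on 6 group means. Of 15303 genes, 3 were called (0.0196%), while 1391 had an unadjusted p under 0.05. The 3 were AP001094.1, RPL36AP30 and AC107918.4, of which none was among the 220 genes called in the pooled comparison, and each was listed at or near 0 in most libraries. The count was 261 without IL1RAP-KO RT replicate 1 and 28 without IL1R1-KO replicate 2. In the pooled model a difference between the lines adds to the standard error. That was 1.07, 0.81 and 0.66 for AP001094.1, RPL36AP30 and AC107918.4, beside a median of 0.22 over all genes. Genes whose lines differ thus had little room for a pooled call. Over the 159 genes called lower the median absolute difference between the lines was 0.26, beside 0.21 over all genes. It is partly set by how the 159 were chosen. LTF differed between the lines by -1.36 (95% interval -2.30 to -0.42, adjusted p = 0.458), and CXCL8 by -0.19 (-0.54 to 0.17, adjusted p = 0.717). DDIT3 differed by 0.75 (0.22 to 1.29, adjusted p = 0.461). These intervals do not show that the lines responded alike. Set against the same WT libraries one line at a time, IL1R1-KO gave 151 genes called lower and 68 higher, and IL1RAP-KO gave 69 and 13.

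**Figure D4:**
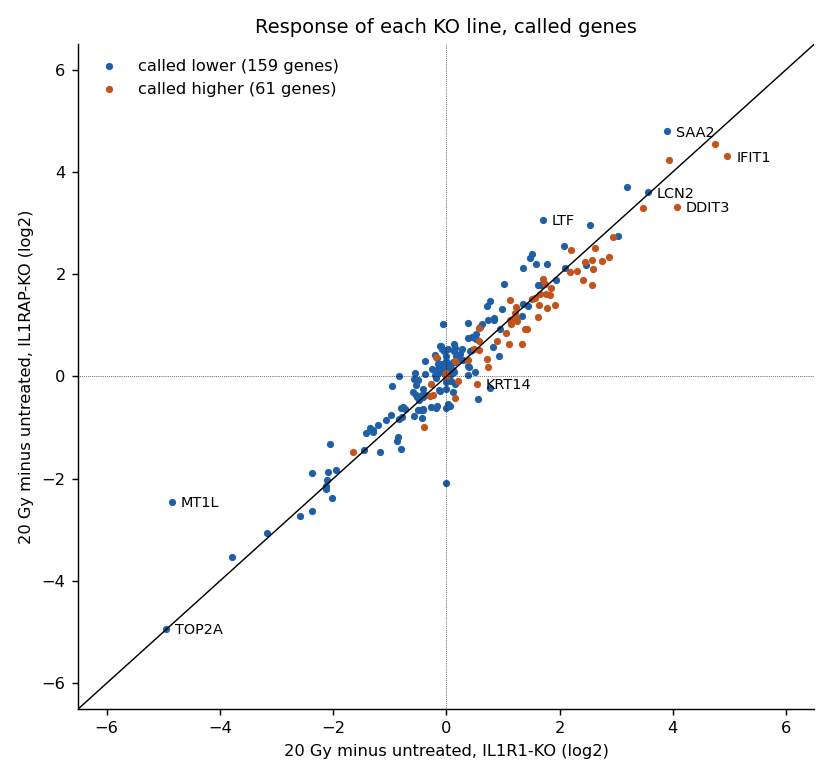
Change after 20 Gy in IL1R1-KO cells (horizontal) against that in IL1RAP-KO cells (vertical), in log2 of scaled TPM + 1, for the 159 genes called lower (blue) and the 61 called higher (orange) in the pooled comparison, with the diagonal marking equal responses. The median absolute distance between the lines was 0.26 for the genes called lower, which is partly set by how they were chosen. The change of MT1L was lower in IL1R1-KO and LTF higher in IL1RAP-KO cells.

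**Figure D5:**
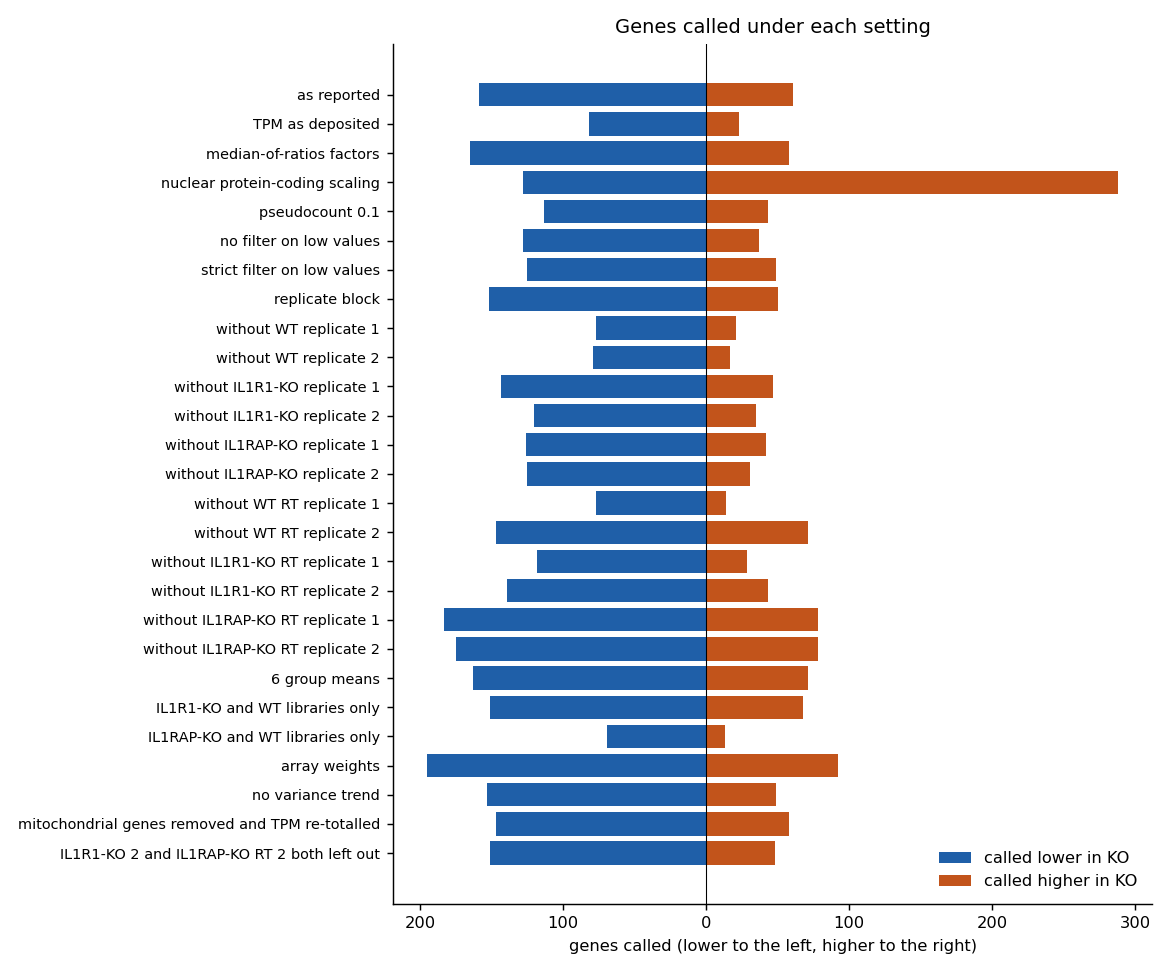
Number of genes called lower (to the left) and higher (to the right) as reported and under each of 26 alternatives. The count of genes called lower ranged from 69, with IL1RAP-KO and WT libraries only, to 195, with array weights, and that of genes called higher from 13 to 288.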

How the data were processed

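RNA of 12 MCF10A libraries was sequenced as 75-bp paired ends from stranded libraries after rRNA depletion. The submitters' notes and the methods name cutadapt 1.15 for trimming, STAR 2.5.3a with GRCh38 for alignment, and HTSeq for gene counts. TPM with 2 decimals were deposited by the authors and are the values used. They hold no read counts, so the depth behind a value is unknown. How gene lengths were set is not given in the sources used here.

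A gene was tested if 2 or more libraries reached a TPM of 1. TPM were divided by trimmed mean factors (30% of M and 5% of A values trimmed per end). Then log2(scaled TPM + 1) was fitted in limma 3.58.1 (R 4.3.3) with genotype, dose and dose by receptor loss, using 7 residual and 3.72 prior degrees of freedom and a variance trend. Fold changes are on this scale, which understates changes of low genes. Calls needed a Benjamini-Hochberg adjusted p under 0.05 over all tested genes and a difference beyond 1 log2 unit. KO lines were compared on 6 group means. The script was tested on simulated data.

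The comparison, thresholds, scaling and 25 gene lists were chosen with earlier results of these data known. Named genes were the targeted genes, the 12 most negative and 8 most positive called differences among genes whose mean reached 2 log2 units, and up to 2 called members per list with the smallest adjusted p, or the most abundant member where none was called. Other genes were named after their values were seen, further list members included. Positions are from GENCODE v44, which held 15253 of the tested genes. Alternatives covered scaling, pseudocount, filters, model terms and single libraries.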

Additional observations from a re-analysis of the deposited data

Results flagged for a closer look

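The response to 20 Gy differed between receptor-deficient and WT cells, by the test of that difference itself in limma, in 159 genes called lower and 61 called higher in KO cells.

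The responses of the KO lines differed from each other in 3 genes, by the test of IL1R1-KO minus IL1RAP-KO. AP001094.1, a long noncoding RNA, differed by -3.96 on the log2 scale (adjusted p = 0.000599): it was at 13.8 and 15.3 scaled TPM in the irradiated IL1RAP-KO libraries and listed at 0 in the other 10. The processed pseudogene RPL36AP30 differed by -2.93 (adjusted p = 0.00639) and was at 6.92 and 6.33 scaled TPM in the untreated IL1R1-KO libraries and listed at 0 in the other 10. AC107918.4, an unprocessed pseudogene, differed by -2.32 (adjusted p = 0.047) and stood at 4.97 and 4.60 scaled TPM in the untreated IL1R1-KO libraries and at 0 to 0.207 in the others.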

How the results depend on the processing

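Every gene called lower or higher kept its direction in all alternatives that gave it a value. Of the genes called, 63 of 159 lower and 9 of 61 higher were kept with each of the 12 libraries left out, and 75 and 16 under all 3 other scalings. Beside 159 lower and 61 higher, TPM as deposited gave 82 and 23, nuclear protein-coding scaling 128 and 288, no filter on low values 128 and 37, a pseudocount of 0.1 113 and 43, IL1RAP-KO and WT libraries only 69 and 13, and array weights 195 and 92. With 1 library left out, 77 to 183 were called lower and 14 to 78 higher. The lower count was 77 without WT replicate 1, 79 without WT replicate 2 and 77 without WT RT replicate 1. The higher count was 21, 17 and 14 without these, 35 without IL1R1-KO replicate 2, 31 without IL1RAP-KO replicate 2 and 29 without IL1R1-KO RT replicate 1. The cause of these shifts was not tested. Removal of mitochondrial genes was followed by trimmed mean scaling again, which built in counts near those reported. Without IL1R1-KO replicate 2 and IL1RAP-KO RT replicate 2 together, an alternative added after seeing the data, 151 and 48 were called, and with mitochondrial genes removed, also added, 147 and 58.

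The comparison of KO lines gave 1 to 261 genes with 1 library left out (261 without IL1RAP-KO RT replicate 1, 28 without IL1R1-KO replicate 2, and 5 and 1 without replicates 1 and 2 of IL1RAP-KO), 16 with no filter on low values, 1 with a stricter filter and 24 without both libraries named together above.

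A replicate block gave 152 lower and 50 higher. Same-numbered libraries did not deviate together (correlations of -0.06 to 0.10 over 15 pairs of groups, 0 of them over 0.1), so the numbers were not taken as pairs.

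Some uncalled genes near 0 changed sign. PCNA was at 0.016 with TPM as deposited and 0.23 with nuclear protein-coding scaling, where KRT7 was at 0.18. With IL1R1-KO and WT only, KRT7 was at 0.37, PECAM1 at -0.025 and MT-ATP8 at -0.24. With IL1RAP-KO and WT only, B2M was at -0.081 and FDPS at -0.020. Without both libraries named together above, KRT7 was at 0.18, B2M at -0.00209 and MT-ATP8 at -0.038. With 1 library left out, FDPS ranged from -0.040 to 0.15, B2M from -0.20 to 0.31, KRT7 from -0.45 to 0.025 and MT-ATP8 from -0.028 to 0.43, and none of them was called.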
